A study of Mus musculus with 30 samples.

Results

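The chemokine ligands Ccl2, Ccl3, Ccl4, Ccl7 and Ccl8 and the chemokine receptors Ccr1 and Ccr2 are described here across all 5 groups of peritoneal macrophage samples from mice. They are 7 of the 248 target genes of an nCounter mouse inflammation panel, which counts RNA molecules with a probe pair per gene and no amplification. They were chosen by name, as ligands that attract monocytes and the receptors on which most of these ligands act. Chemokines are small secreted proteins that steer leukocytes through receptors coupled to G proteins. CCL2 and CCL7 act on CCR2, which brings inflammatory monocytes out of the bone marrow and into inflamed tissue, and CCL3 acts on CCR1, which is found on several kinds of leukocyte. Lipopolysaccharide (LPS), a component of the outer membrane of Gram-negative bacteria, is sensed through TLR4 and induces many chemokine genes in macrophages.

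All mice were C57BL/6 of 12 to 16 weeks, with 6 samples per group. COX-1>COX-2, COX-2>COX-1, Reversa and WT+LPS mice received LPS at 2 mg/kg into the peritoneal cavity, and WT-LPS mice received the same volume of PBS. Cells were taken 6 h later. These are knock-in lines: the coding sequence of Ptgs1 (cyclooxygenase-1) replaces that of Ptgs2 at the Ptgs2 locus in COX-1>COX-2 mice, the coding sequence of Ptgs2 (cyclooxygenase-2) replaces that of Ptgs1 in COX-2>COX-1 mice, and Reversa carries both changes. The exchange is present in every cell of the mouse, and no exchange mouse received PBS, so the LPS effect of an exchange line could not be measured within that line. Cyclooxygenases make the precursor of prostaglandins, lipid mediators that regulate cytokine production by macrophages.

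Total signal per sample ran between 471534 and 773828, with an estimated 298393 to 1001816 counts. Ptgs2 signal lay between 1 and 1.76 in COX-1>COX-2, and Ptgs1 signal lay between 1 and 5.77 in COX-2>COX-1, as these genotype labels require. Reversa samples 55 and 56 differed in their counts by little more than counting noise (chi-square of 1.27 per gene, against 20.8 or more in the other sample pairs), so their mean was counted as 1 sample and Reversa has n = 5. Each group took its own pair of lane positions in all 3 runs, so lane position and group cannot be told apart. All 9 macrophage markers on the panel were measurable, and their summed signal was 21860 to 52185 in COX-1>COX-2 samples, 29877 to 43789 in COX-2>COX-1 samples, 16008 to 39669 in Reversa, 32045 to 58626 in WT+LPS and 104873 to 145286 in WT-LPS. In whole-sample RNA, fewer cells of a type and less RNA per cell cannot be told apart.

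The 5 ligand genes lie on mouse chromosome 11, where Ccl2 neighbours Ccl7 and Ccl3 neighbours Ccl4 among coding genes, and the 2 receptor genes lie on chromosome 9. Promoter windows are shown because the ligands and the receptors moved in opposite directions with LPS. A matched window was available for 4 of the 7 members. Each window runs from 250 bases before to 50 bases after the start of the gene, 300 bases in all, taken from RefSeq on GRCm38.p6. Capitals mark the motif matches found.
Ccl8, chr11:82114935-82115234, plus strand: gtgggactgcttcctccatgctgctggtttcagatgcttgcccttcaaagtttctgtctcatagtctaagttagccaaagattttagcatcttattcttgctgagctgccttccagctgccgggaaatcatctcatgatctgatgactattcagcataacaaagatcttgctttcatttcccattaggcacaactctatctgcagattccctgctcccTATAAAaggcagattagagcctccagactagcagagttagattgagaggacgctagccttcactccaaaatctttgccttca
Ccl3, chr11:83649329-83649628, minus strand: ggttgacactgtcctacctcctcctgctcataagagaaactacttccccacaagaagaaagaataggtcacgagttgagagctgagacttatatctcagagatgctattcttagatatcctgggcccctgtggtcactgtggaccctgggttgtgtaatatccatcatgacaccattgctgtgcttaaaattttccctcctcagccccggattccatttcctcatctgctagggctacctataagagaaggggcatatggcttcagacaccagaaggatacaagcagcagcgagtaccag
Ccr2, chr9:124101933-124102232, plus strand: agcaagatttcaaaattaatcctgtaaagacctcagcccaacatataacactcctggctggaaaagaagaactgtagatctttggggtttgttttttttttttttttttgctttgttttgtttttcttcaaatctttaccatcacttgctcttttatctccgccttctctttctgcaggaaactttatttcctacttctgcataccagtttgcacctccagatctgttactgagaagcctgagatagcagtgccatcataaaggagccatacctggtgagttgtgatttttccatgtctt
Ccr1, chr9:123968643-123968942, minus strand: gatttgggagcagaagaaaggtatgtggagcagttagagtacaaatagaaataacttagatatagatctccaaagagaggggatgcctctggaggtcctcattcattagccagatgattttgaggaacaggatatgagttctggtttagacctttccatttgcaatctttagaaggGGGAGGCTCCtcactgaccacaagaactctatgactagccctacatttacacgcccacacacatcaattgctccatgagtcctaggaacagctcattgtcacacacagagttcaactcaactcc
The motifs searched on both strands were an NF-kB type motif in a narrow and a wide form, where the wide form takes in the narrow one, TGANTCA (AP-1 type), an interferon response element type motif and TATAAA. Ccl8 held TATAAA at bases 219 to 224 of its window, a match found in 13.6% of 32851 promoter windows of the same length. Ccr1 held GGGAGGCTCC, a match to the wide NF-kB form, at bases 177 to 186, and 50.8% of windows hold a match to that form. Neither the Ccl3 nor the Ccr2 window held a match to any of these motifs. The shares for the others were 4.79% for the narrow NF-kB form, 7.81% for TGANTCA and 3.44% for the interferon response element type. No matched window was available for Ccl2, Ccl4 and Ccl7.

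All 5 ligands were higher and both receptors were lower in each of the LPS-treated groups than in WT-LPS. The ligands that act on CCR2 went up while Ccr2 itself went down. In WT mice Ccl2 was 87.8-fold higher, Ccl3 was 413-fold higher, and Ccr2 was 25.5-fold lower. Ccr1 was 2.18-fold lower. Values are the deposited normalised signal, which the authors scaled so that the reference genes Cltc and Gapdh had the same geometric mean in every sample. Tests were made with limma on log2(signal + 1) over 202 target genes, with Benjamini-Hochberg adjustment over all 202 and a threshold of 0.05. Probes differ in efficiency, so signals of different genes are not compared.

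Of all genes tested, 83.7% passed the test between WT+LPS and WT-LPS, 49.5% as higher and 34.2% as lower, so passing it sets the 7 members little apart. All 7 members also had ranges that did not overlap between these groups, as did 72.3% of the genes tested. The median log2 difference was 8.69 over the 5 ligands and 0.47 over all genes tested. Ccl4 and Ccl8 were under 20 in all 6 WT-LPS samples and Ccl7 in 5 of 6, so they could not have entered the fit without the LPS groups. The split of calls depends on the scaling. It was 100 higher and 69 lower as deposited, 120 and 43 with scaling to the 4 reference genes other than Gapdh and Pgk1, and 74 and 105 with equal medians of the tested genes, and the 5 ligands were higher and both receptors lower under each of these.

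Ccl2 encodes CCL2, also known as MCP-1, a main ligand of CCR2. Its lowest, median and highest signals were 9175, 13911 and 20248 in COX-1>COX-2 mice and 15209.9, 20732 and 23846 in COX-2>COX-1 mice. The 5 Reversa samples had 16531, 20705, 22480.3, 25681 and 25735. In WT+LPS they were 13344, 16846 and 17125, and in WT-LPS 119, 185 and 238. Every LPS sample was above every WT-LPS sample, and within the LPS groups the ranges overlapped. The log2 difference between WT+LPS and WT-LPS was 6.46 ± 0.19 (SE, adjusted p = 6.6e-22, limma). By group mean the order was Reversa (22226 ± 3842), COX-2>COX-1 (19937 ± 3032), WT+LPS (15893 ± 1683), COX-1>COX-2 (14502 ± 4703) and WT-LPS (184.5 ± 47.2; SD, n = 6, Reversa 5), and the only neighbours in that order that differed past the threshold were COX-1>COX-2 and WT-LPS.

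Ccl7, which encodes the CCR2 ligand CCL7 (MCP-3), lay under or near a signal of 20 in WT-LPS. Of the 240 values of the negative control probes, 1 exceeded 20. Lowest, median and highest signals were 5229, 7234 and 11078 in COX-1>COX-2, and 7334, 10603 and 11942 in COX-2>COX-1. The Reversa samples had 9570.0, 9992, 10245, 10258 and 10883. WT+LPS samples had 5096, 8074 and 8227, against 6.42, 10.04 and 21.3 in WT-LPS, where 5 of 6 samples were under 20. The Reversa samples lay within a narrow band, with a coefficient of variation of 4.7%, while that of the other LPS groups was 16.7% to 27%. Set against a floor of 20 in WT-LPS, Ccl7 was at least 355-fold higher in WT+LPS (log2 difference 9.26 ± 0.21, adjusted p = 8.4e-25, limma).

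Ccl8 encodes CCL8 (MCP-2), which in the mouse acts mainly on CCR8. Its lowest, median and highest signals were 11.7, 22.7 and 76.3 in COX-1>COX-2 mice and 29.1, 32.9 and 89.8 in COX-2>COX-1 mice. Reversa samples had 28.7, 40.2, 56.2, 64.0 and 159. WT+LPS samples had 27.2, 44.9 and 57.8, against 1, 1.30 and 1.58 in WT-LPS. It thus stayed close to the floor of 20 with LPS, where 1 COX-1>COX-2 sample was still under it, and all 6 WT-LPS samples were under it. The bound on its rise was accordingly low, at least 2.12-fold in WT+LPS (log2 difference 4.24 ± 0.37, adjusted p = 2e-11, limma).

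Ccl3 encodes CCL3 (MIP-1α), a ligand of CCR1. Lowest, median and highest signals were 7741, 12117 and 19416 in COX-1>COX-2 mice and 9826, 12267 and 18354 in COX-2>COX-1 mice. The Reversa samples had 8686, 13363, 14821, 16900.0 and 32376. WT+LPS samples had 8723, 12078 and 16740.2, against 13.7, 31.8 and 46.4 in WT-LPS. Of the WT-LPS samples, 2 were under 20, with 13.7 and 19.3, so the fold rests partly on values below that floor. The highest Reversa value is the mean of samples 55 and 56, and the LPS groups overlapped throughout. The log2 difference between WT+LPS and WT-LPS was 8.69 ± 0.29 (adjusted p = 9.5e-21, limma).

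Ccl4 encodes CCL4 (MIP-1β), a chemokine closely related to CCL3. Its lowest, median and highest signals were 3039.5, 4923 and 8094 in COX-1>COX-2 mice and 4409, 6644 and 18667 in COX-2>COX-1 mice. In Reversa they were 5363, 5574, 5694, 6431 and 13059 in the 5 samples. In WT+LPS they were 3687, 5369 and 6971, and in WT-LPS, where all 6 samples were under 20, they were 1.39, 4.58 and 9.27. In COX-2>COX-1 and also in Reversa, 1 sample stood well above the rest, and the other samples of these groups overlapped with WT+LPS. Ccl4 was at least 262-fold higher in WT+LPS than in WT-LPS (log2 difference 10.05 ± 0.34, adjusted p = 1.1e-20, limma).

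**Figure D1:**
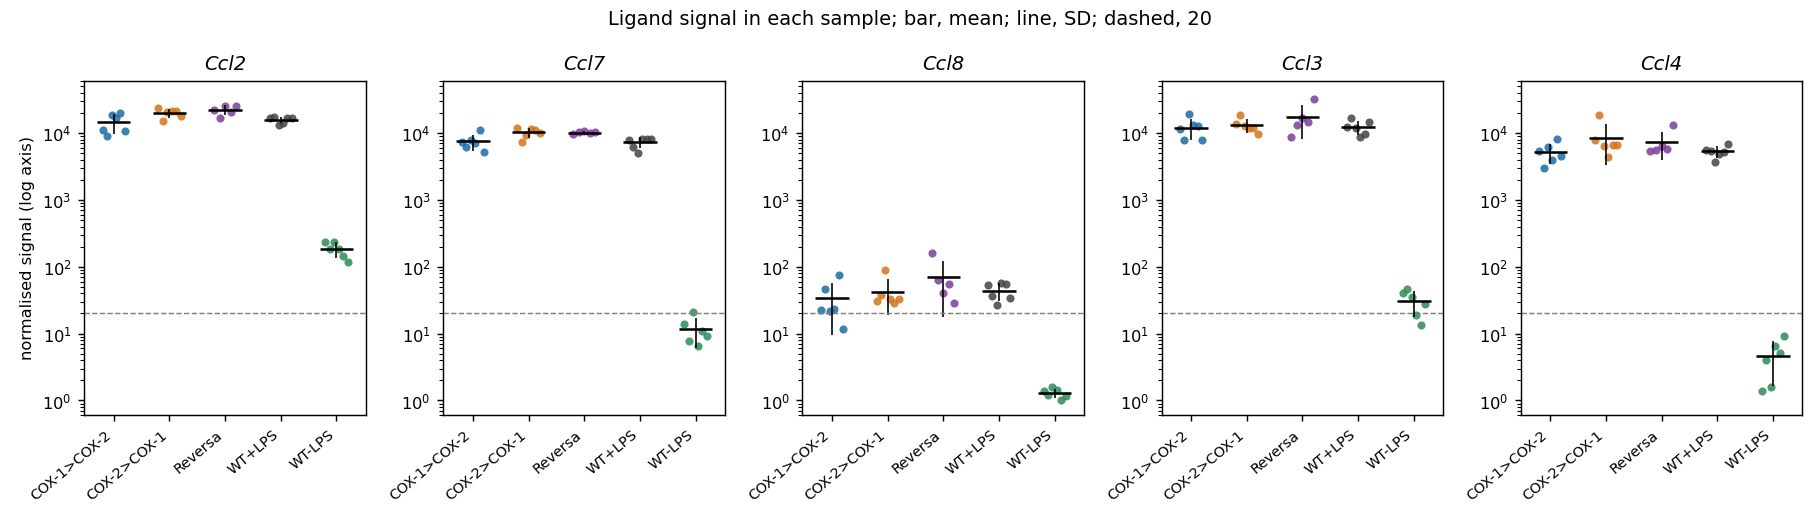
Normalised signal (log axis) of the 5 ligands in each sample of COX-1>COX-2, COX-2>COX-1, Reversa, WT+LPS and WT-LPS. Points are samples, bars are group means and vertical lines are SDs, and the dashed line is a signal of 20. Every LPS sample lies above every WT-LPS sample, and Ccl8 is the only ligand with LPS samples near 20.

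The receptors moved the other way. Ccr2 encodes the receptor of CCL2 and CCL7 and marks inflammatory monocytes. Lowest, median and highest signals were 98.9, 105 and 163 in COX-1>COX-2 mice and 69.9, 113 and 190.1 in COX-2>COX-1 mice. The 5 Reversa samples had 133, 154, 169, 230.0 and 273. WT+LPS samples had 73.0, 133 and 169, against 2452, 3334 and 3908 in WT-LPS. No LPS sample came near the WT-LPS range, and all of them were still above the floor of 20. The log2 difference between WT+LPS and WT-LPS was -4.67 ± 0.22 (adjusted p = 4e-17, limma).

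Ccr1 encodes a receptor for CCL3 and CCL7, among others, that monocytes and neutrophils carry. Its lowest, median and highest signals were 659.5, 864 and 1055 in COX-1>COX-2 mice and 672, 1188 and 1292 in COX-2>COX-1 mice. Reversa samples had 672, 844, 870.1, 885 and 1241. WT+LPS samples had 588, 1145 and 1775, against 2149, 2368 and 2466 in WT-LPS. The WT-LPS samples lay close together (coefficient of variation 5.6%), and those of WT+LPS were spread most widely (34.9%), yet the ranges did not meet. The log2 difference was -1.13 ± 0.20 between WT+LPS and WT-LPS (adjusted p = 1e-05, limma). By group mean WT-LPS (2331 ± 131) was highest, followed by WT+LPS (1124 ± 393), COX-2>COX-1 (1095 ± 228), Reversa (902 ± 208) and COX-1>COX-2 (855 ± 171; SD, n = 6, Reversa 5), and only WT-LPS and its neighbour differed past the threshold. Within run 1 alone, with 2 samples per group, the adjusted p was 0.060 in the comparison of WT+LPS with WT-LPS and 0.12 in that of COX-2>COX-1 with WT-LPS.

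**Figure D2:**
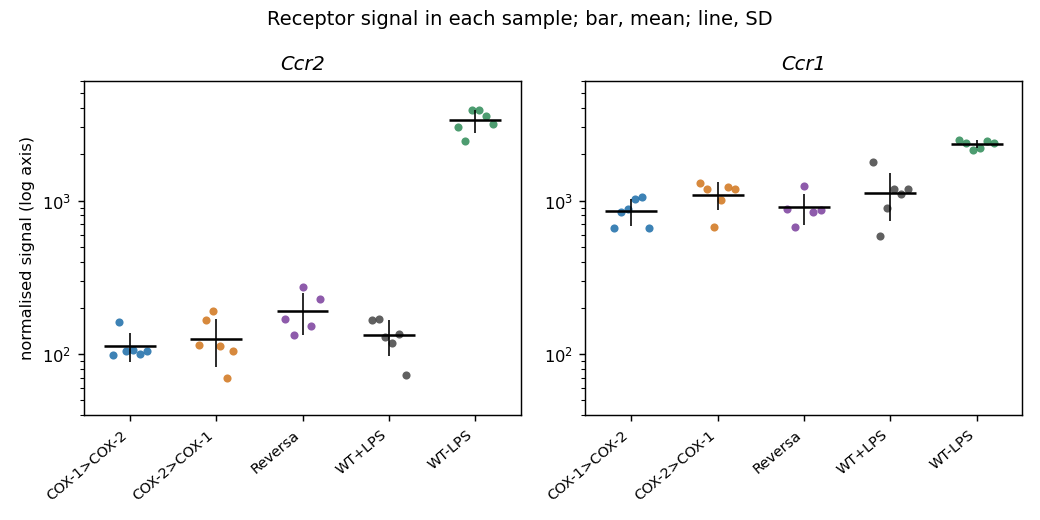
Normalised signal (log axis) of Ccr2 and Ccr1 in each sample of the 5 groups, with group means (bars) and SDs (vertical lines). LPS samples have Ccr2 signals between 69.9 and 273, all below the lowest WT-LPS sample at 2452, and the corresponding gap for Ccr1 lies between 1775 and 2149.

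Markers of macrophages fell alongside the receptors. Between WT+LPS and WT-LPS, 7 of the 9 markers were lower, none was higher, and the median log2 difference was -1.60. Cd163 and Mrc1 did not pass. Of the 3 neutrophil markers on the panel, Cxcr1 was under 20 in every group, Cxcr2 was higher and Mmp9 lower in WT+LPS than in WT-LPS, and their summed signal was 71.3 to 121 in WT+LPS and 63.7 to 229 in WT-LPS. Other lists moved too. Of the T and NK cell genes, Fasl and Ifng were higher and Cd4 and Cd40lg lower, with a summed signal of 481 to 1245 in WT+LPS and 237 to 431 in WT-LPS. Of the B cell genes, Cd40 was higher and Ltb lower (2976 to 4111 in WT+LPS, 4446 to 5754 in WT-LPS). Il5 and Il13, the tested genes of the mast cell and eosinophil list, were higher, with a median log2 difference of 2.03. The summed signal of that list was 11.2 to 96.7 in WT+LPS and 10.6 to 35.6 in WT-LPS. Il5 and Il13 were under 20 in every WT-LPS sample, and Il13 also in every WT+LPS sample. Their differences therefore rest on values under that floor. Flt1 and Areg, the tested genes of the mesothelial and stromal list, were higher with a median of 3.07. Their summed signal was 51.0 to 82.8 in WT+LPS and 2.0 to 6.5 in WT-LPS. Flt1, Areg, Cxcr2 and Ifng were under 20 in every WT-LPS sample. They entered the fit only through the LPS groups, and their differences rest on WT-LPS values under that floor. The part of cell composition in the changes of the 7 members was not tested.

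The exchange lines differed from WT-LPS in the same directions, in comparisons where both genotype and LPS differ. In COX-1>COX-2, COX-2>COX-1 and Reversa all 5 ligands were higher, both receptors were lower and none of the 7 ranges overlapped with WT-LPS. Of all genes tested, 80.2%, 85.1% and 81.7% passed in these comparisons in the same order. Higher calls were 47.0%, 51.0% and 47.5% of the genes tested, lower calls 33.2%, 34.2% and 34.2%, and genes with ranges that did not overlap 63.9%, 67.8% and 60.9%. The 4 LPS groups share the WT-LPS samples, so their values against WT-LPS are given side by side and not as independent repeats.

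For Ccl2 the fold over WT-LPS was 76.9 in COX-1>COX-2 mice, 109.5 in COX-2>COX-1 mice and 122 in Reversa. For Ccl7 it was at least 360-fold (359.6), 498-fold and 504-fold in the same groups. Ccl3 was 393-fold, 440-fold (439.6) and 537-fold higher. Ccl4 was at least 247-fold, 376-fold and 339-fold higher, and Ccl8 at least 1.39-fold, 1.93-fold and 2.90-fold higher. Ccr2 was 29.3-fold lower in COX-1>COX-2 mice, 27.1-fold lower in COX-2>COX-1 mice and 17.6-fold lower in Reversa. Ccr1 was 2.77-fold, 2.17-fold and 2.63-fold lower. All of these passed the limma test, the largest adjusted p being 1.1e-05, for Ccr1 in COX-2>COX-1.

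To set ligand against receptor, the log2 ratio of ligand signal to receptor signal, each with 1 added, was taken within each sample. The scaling of the sample nearly cancels in it, though less so where a signal is low. The zero point of the ratio depends on probe efficiency, so only shifts between groups are read, as a description with no test. For Ccl2 over Ccr2 the mean was 6.95 ± 0.68 in COX-1>COX-2 samples, 7.35 ± 0.64 in COX-2>COX-1 samples, 6.88 ± 0.21 in Reversa, 6.94 ± 0.45 in WT+LPS and -4.19 ± 0.44 in WT-LPS (SD, n = 6, Reversa 5). The 4 LPS groups therefore lay within a narrow range, from 6.88 to 7.35, and the lowest LPS sample, at 5.81, was far above the highest WT-LPS sample at -3.67. By mean, Ccl2 and Ccr2 were both highest in Reversa among the LPS groups, with no member past the test there, and their mean ratio there differed from that of WT+LPS by less than the SD of either group.

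For Ccl7 over Ccr2 the means were 6.02 ± 0.54 in COX-1>COX-2 samples, 6.38 ± 0.71 in COX-2>COX-1 samples, 5.77 ± 0.39 in Reversa, 5.80 ± 0.60 in WT+LPS and -8.13 ± 0.55 in WT-LPS. The WT-LPS value rests on Ccl7 signals mostly under 20. For Ccl3 over Ccr1 they were 3.77 ± 0.44, 3.58 ± 0.44, 4.14 ± 0.71, 3.50 ± 0.75 and -6.32 ± 0.65 in the same order of groups. In each of the 3 ratios, the LPS groups overlapped with each other and none overlapped with WT-LPS.

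**Figure D3:**
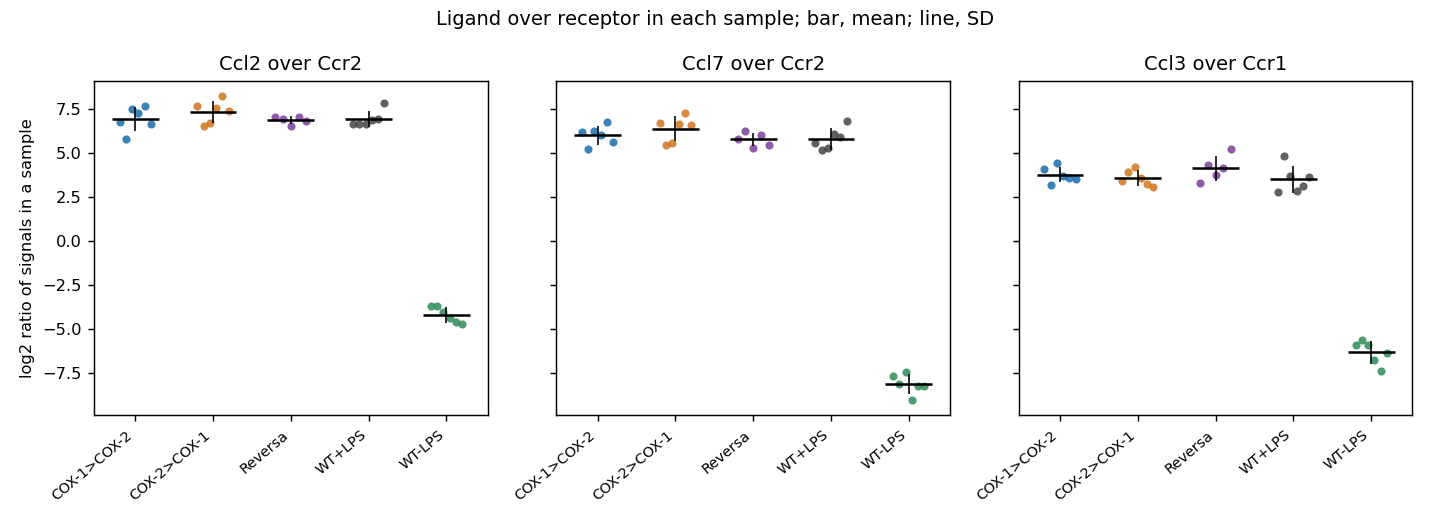
Log2 ratio of ligand to receptor signal within each sample for Ccl2 over Ccr2, Ccl7 over Ccr2 and Ccl3 over Ccr1, by group, with group means (bars) and SDs (vertical lines). The LPS groups overlap in each panel, and WT-LPS lies apart, with a mean of -4.19 for Ccl2 over Ccr2 against 6.88 to 7.35 in the LPS groups.

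The remaining comparisons ask whether exchanging the cyclooxygenase genes changed these genes under LPS. None of the 7 members passed the limma test in any of the 6 comparisons among the LPS groups. The values closest to the threshold were those of Ccl2 and Ccr2 in Reversa against COX-1>COX-2.

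Between COX-1>COX-2 and WT+LPS, 0 of 7 members passed, against 0.99% of all genes tested, and 0 of 7 had an unadjusted p under 0.05, against 8.91% of all genes. The log2 difference was -0.19 for Ccl2 (95% confidence interval -0.58 to 0.20), 0.02 for Ccl7 (-0.41 to 0.44) and -0.59 for Ccl8 (-1.33 to 0.16). It was -0.07 for Ccl3 (-0.66 to 0.52) and -0.08 for Ccl4 (-0.78 to 0.61). For Ccr2 it was -0.20 (-0.66 to 0.26), and for Ccr1 -0.34 (-0.75 to 0.07). As ratios of COX-1>COX-2 to WT+LPS, the interval was 0.67 to 1.15 for Ccl2 and 0.75 to 1.36 for Ccl7, and on the log2 scale the widest intervals were those of Ccl8 and Ccl4.

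Between COX-2>COX-1 and WT+LPS, 0 of 7 members passed, against 0.99% of all genes. At an unadjusted p under 0.05, 1 of 7 did, Ccl7, as did 12.9% of all genes. Ccl7 had a log2 difference of 0.49 (0.06 to 0.91, adjusted p = 0.31, limma). The others were 0.32 for Ccl2 (-0.07 to 0.71), -0.13 for Ccl8 (-0.88 to 0.62), 0.09 for Ccl3 (-0.50 to 0.68), 0.52 for Ccl4 (-0.17 to 1.21), -0.09 for Ccr2 (-0.55 to 0.37) and 0.01 for Ccr1 (-0.40 to 0.42).

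Between Reversa and WT+LPS, 0 of 7 members passed, against 8.42% of all genes. An unadjusted p under 0.05 was reached by 3 of 7, and by 21.3% of all genes. These were Ccl2 with a log2 difference of 0.47 (0.06 to 0.88), Ccl7 with 0.50 (0.06 to 0.95) and the receptor Ccr2 with 0.53 (0.05 to 1.01), each with an adjusted p of 0.17 by limma. Ccl7 was the only member whose ranges did not overlap, with all 5 Reversa samples above all 6 WT+LPS samples. Of all genes tested, 4.95% had ranges that did not overlap, counting both directions. The other differences were 0.45 for Ccl8 (-0.34 to 1.23), 0.38 for Ccl3 (-0.24 to 1.0), 0.37 for Ccl4 (-0.35 to 1.10) and -0.27 for Ccr1 (-0.70 to 0.16).

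Within runs 1, 2 and 3 the log2 difference between Reversa and WT+LPS was 0.50, 0.69 and 0.32 for Ccl7 and 0.18, 0.75 and 0.61 for Ccl2. For Ccr2 it was -0.17, 0.72 and 1.20, so its direction was not the same in each run, and run 3 holds 1 Reversa sample. Total signal was 518965 to 647507 in Reversa and 620696 to 766533 in WT+LPS. With every sample scaled to the same total, Ccl2 (0.66, adjusted p = 0.015), Ccl7 (0.69, adjusted p = 0.036) and Ccr2 (0.72, adjusted p = 0.047) passed the limma test. Calls over all genes then split into 10 higher and 13 lower, against 3 and 14 as deposited.

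Genes of the cell type lists also differed between these groups. Of the 9 macrophage markers, C1qa, C1qb and Trem2 were lower in Reversa than in WT+LPS, and the median log2 difference was -0.52. In the mast cell and eosinophil list, Il5 and Il13 were higher in Reversa and the other 3 were not tested. The summed signal of that list was 69.8 to 328 in Reversa and 11.2 to 96.7 in WT+LPS. Il13 was under 20 in every WT+LPS and WT-LPS sample. It thus entered the fit only through the exchange lines, and its difference rests on WT+LPS values under that floor. Whether cell composition had a part in these values or in the differences of Ccl2, Ccl7 and Ccr2 was not tested.

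**Figure D4:**
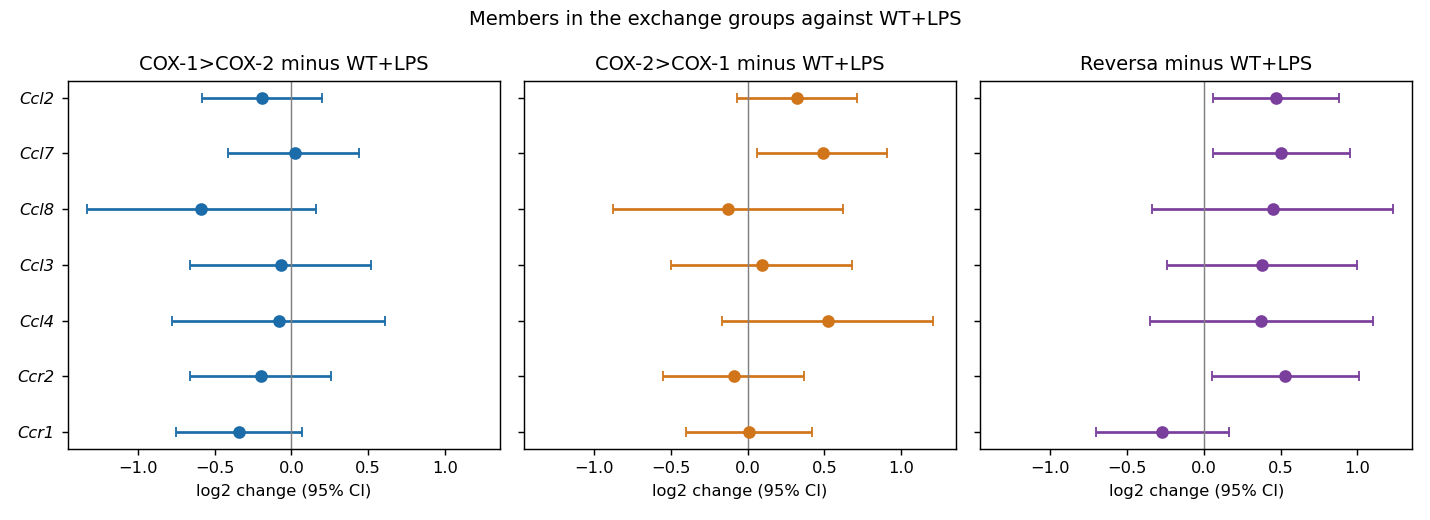
Log2 differences of the 7 members in COX-1>COX-2, COX-2>COX-1 and Reversa, each minus WT+LPS, with 95% confidence intervals from limma (horizontal lines). The intervals exclude 0 for Ccl7 in COX-2>COX-1 (0.06 to 0.91) and for Ccl2, Ccl7 and Ccr2 in Reversa, and no member passed the adjusted threshold.

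Among the exchange lines, the share of all genes that passed was 5.94% for COX-1>COX-2 against COX-2>COX-1, 1.49% for Reversa against COX-1>COX-2 and 10.9% for Reversa against COX-2>COX-1, with 0 of 7 members in each. At an unadjusted p under 0.05 the members numbered 2, 4 and 1, and the shares of all genes were 22.8%, 14.9% and 22.3%. In COX-1>COX-2 against COX-2>COX-1, these were Ccl2 with a log2 difference of -0.51 (-0.90 to -0.12, adjusted p = 0.1) and Ccl7 with -0.47 (-0.90 to -0.05, adjusted p = 0.17). Ccl4 had -0.61 (-1.30 to 0.08), and the remaining members lay between -0.46 for Ccl8 and -0.11 for Ccr2.

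In Reversa against COX-1>COX-2, Ccl2 was 1.58-fold higher (log2 difference 0.66, 0.25 to 1.07, adjusted p = 0.061, limma). Ccr2 was 1.66-fold higher (0.73, 0.25 to 1.21, adjusted p = 0.070), Ccl8 had 1.03 (0.25 to 1.82, adjusted p = 0.11) and Ccl7 had 0.49 (0.04 to 0.93, adjusted p = 0.25). Ccl3, Ccl4 and Ccr1 had 0.45, 0.46 and 0.07, with intervals that included 0. Ccl2 passed at adjusted p = 0.031 without COX-1>COX-2 sample 55, and at 0.036 without Reversa sample 51. With no sample left out, Ccl2 passed with a pseudocount of 10 (adjusted p = 0.043) and with equal totals (adjusted p = 0.031). With samples 55 and 56 kept apart, Ccl2 (0.70, adjusted p = 0.030) and Ccr2 (0.78, adjusted p = 0.040) passed. Ccl8 passed without COX-1>COX-2 sample 55 (1.32, adjusted p = 0.038) and without Reversa samples 55 and 56 (1.28, adjusted p = 0.046). Each sample left out here held the highest COX-1>COX-2 or the lowest Reversa value of that gene, so leaving it out widens the difference. Over the alternatives without samples left out singly, runs included, Ccl2 ran from 0.38 to 0.94 and Ccr2 from 0.24 to 1.16. Ccl8 ran from -0.08, within run 3, to 1.61.

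In Reversa against COX-2>COX-1, Ccr2 had a log2 difference of 0.62 (0.14 to 1.10, adjusted p = 0.11, limma). It passed without Reversa sample 51, the lowest of its group (0.74, adjusted p = 0.047), and with equal totals (0.89, adjusted p = 0.011). Equal totals moved the median log2 difference of all genes by 0.27 here, and calls then split into 24 higher and 5 lower, against 11 and 11 as deposited. Over the alternatives without samples left out singly, runs included, Ccr2 ran from 0.12 to 1.41. The ligands ran from -0.15 for Ccl4 to 0.58 for Ccl8, and Ccr1 had -0.28, all with intervals that included 0. Ccl7 hardly differed between these lines, with 0.02 (-0.43 to 0.46).

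Which genes varied most like each member was described by Pearson's r of log2(signal + 1) over the 23 LPS samples, which share the scaling to Cltc and Gapdh, and no test was made. The 3 genes of highest r are named for each member, each with r over all 23 samples and then r after the group means were removed. Ccl2 and Ccl7 had r = 0.79 with each other, the highest for both, and 0.67 after removal. For Ccl2 the next were Map2k1, a kinase of the MAP kinase cascade (0.61, then 0.83), and the growth factor gene Csf2 (0.61, then 0.30). So within groups Map2k1 was closer to Ccl2 than Ccl7 was, and the likeness to Csf2 was lower within groups than over all samples. Ccl7 was followed by Il5 (0.54, then 0.31) and Map2k1 (0.51, then 0.62).

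Ccl3 varied most like Il6, which encodes the acute-phase cytokine IL-6 (0.80, then 0.79), Il1a (0.73, then 0.79) and Chi3l3 (0.69, then 0.65). Ccl4 varied most like its neighbour Ccl3 (0.66, then 0.67), Maff (0.62, then 0.70) and Il6 (0.61, then 0.60). These likenesses held about equally with and without the differences between groups. Ccl8 had lower values over all samples, with Ifng (0.47, then 0.70), Il5 (0.45, then 0.31) and Csf2 (0.43, then 0.13), and its likeness to Ifng was closer within groups.

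For Ccr2 the 3 genes were Csf2 (0.67, then 0.54), Cysltr2 (0.55, then 0.64) and Il17a (0.54, then 0.41). Csf2 was thus among the 3 for Ccr2 and for its ligand gene Ccl2. For Ccr1 they were Ccl24 (0.79, then 0.75), Tlr8 (0.69, then 0.71) and the macrophage mannose receptor gene Mrc1 (0.68, then 0.73). Neither Ccl2 nor Ccl7 was among the 3 of Ccr2, and Ccl3 was not among those of Ccr1.

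Other chemokine ligands moved in the same direction with LPS. The panel held 14 of the 25 listed, of which 10 were tested. Of these, 10 of 10 were higher in WT+LPS than in WT-LPS, against 49.5% of all genes tested. Their median log2 difference was 5.72. Ccl17, Cxcl3, Cxcl5 and Cxcl10 were under 20 in all 6 WT-LPS samples, and Cxcl9 in 4 of 6. These genes could not have entered the fit without the LPS groups, so the count of 10 depends in part on the filter. By fitted log2 difference the first 3 were Cxcl10 (13.46), Cxcl3 (10.90) and Cxcl9 (7.92), at least 2424-fold, 352-fold and 122-fold higher. Most of their WT-LPS samples lay under 20, so their order among the ligands rests on values under that floor, and Cxcl1, measurable in both groups, was 128-fold higher. CXCL9 and CXCL10 attract T cells through CXCR3, and CXCL3 attracts neutrophils through CXCR2. In COX-1>COX-2, COX-2>COX-1 and Reversa, 9, 10 and 9 of the 10 tested ligands were higher than in WT-LPS. The shares of all genes tested were 47.0%, 51.0% and 47.5%.

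Between Reversa and WT+LPS, 2 of the 10 other ligands were lower and none was higher, and their median log2 difference was -0.74, against 0.45 for the 5 ligands above and -0.07 for all genes tested. Ccl5 averaged 18633 ± 4862 in Reversa and 42109 ± 3926 in WT+LPS (SD, n = 5 and 6), with no overlap. It encodes a ligand of CCR1 and was 2.31-fold lower in Reversa (log2 difference -1.21 ± 0.21, adjusted p = 0.00051, limma). Cxcl9 averaged 770.2 ± 597.7 in Reversa and 2808 ± 832 in WT+LPS, again without overlap, and was 4.36-fold lower (log2 difference -2.12 ± 0.52, adjusted p = 0.0091, limma). Whether the members and the other ligands differ in their response to the exchange was not tested.

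Of the 6 other chemokine receptors on the panel, 3 were tested. Cxcr2, the neutrophil receptor for CXCL1 and related ligands, was at least 2.23-fold higher in WT+LPS than in WT-LPS. Cxcr4, the receptor of CXCL12, was 2.25-fold lower (log2 difference -1.17 ± 0.38, adjusted p = 0.0067, limma), and Ccr7 had a log2 difference of 0.64 ± 0.32 (adjusted p = 0.064). None of the 3 passed in a comparison among the LPS groups.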

How the data were processed

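Peritoneal macrophage RNA of 30 mice was measured on an nCounter panel with 248 target genes and 6 reference genes. Per the labels' protocols, total RNA was brought to 20 ng/µl and had an integrity number of 7.0 or more. The authors deposited 1 normalised signal for each gene in each sample, made with software not given in the sources used. Read from the values, the deposited signal has a background removed, a floor of 1, and a scaling that puts the geometric mean of Cltc and Gapdh at 8147.9 in every sample. Of the tables of 268 and 266 rows, the larger was used, and all 266 shared rows were equal. One count was worth 0.646 to 1.937 of signal.

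Groups came from the labels. Reversa samples 55 and 56 were averaged (see the chi-square above), which left 29 samples. A gene entered the fit if its signal exceeded 20 in 6 or more samples, as for 202 of the 248. The values log2(signal + 1) were fitted with limma 3.58.1 (R 4.3.3) using lmFit and eBayes and 1 mean for each group, two-sided tests and Benjamini-Hochberg adjustment over the 202 at a threshold of 0.05. Folds come from log2(signal + 1) and so understate changes of dim genes. A fold is a bound ("at least") where a group lay mostly under 20; its values were then raised to 20 where lower before taking geometric means. The members, gene lists, markers, motifs and tests were chosen with earlier results of these data known. The named genes were the 7 members, Ptgs1 and Ptgs2, for each member the 3 genes of highest r, and from the other chemokines the 3 largest changes in WT and those past the test among LPS groups. Other genes, such as the markers that passed, were named after their values were seen. The script was tested on simulated data. P-values measure the spread between the samples, which the labels describe as separate mice.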

Additional observations from a re-analysis of the deposited data

Results flagged for a closer look

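In 6 of the 50 groups of values examined, the highest or lowest sample stood apart from the rest of its group by Dixon's criterion (0.625 of the range for 6 samples, 0.71 for 5), and chance gives about 1 in 20 such groups. Ccl8 had a signal of 89.8 in COX-2>COX-1 sample 53 and of 158.8 in Reversa sample 52, each the highest of its group. Ccl4 had 18667 in COX-2>COX-1 sample 52 and 13059 in the averaged Reversa samples 55 and 56. Ccr2 had 162.6 in COX-1>COX-2 sample 58, the highest of that group. The log2 ratio of Ccl2 to Ccr2 was 7.82 in WT+LPS sample 56, above the other samples of its group.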

How the results depend on the processing

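Against WT-LPS, the 7 members kept their direction under all alternatives run (pseudocount, filters, scalings, runs, averaging, prior variance and samples left out), and the calls lost were those of Ccr1 within run 1, in WT+LPS (-1.24, adjusted p = 0.060) and COX-2>COX-1 (-0.97, adjusted p = 0.12), where 2 samples per group remain. For Ccr1 in WT+LPS the log2 difference ran from -2.04 to -0.62. Equal totals moved the median log2 difference of all genes between WT+LPS and WT-LPS by -0.39, the 4 reference genes by 0.50 and equal medians by -0.92. Ccl7, Ccl4 and Ccl8 lay mostly under 20 in WT-LPS, which limits their folds to bounds, Ccl3 was under 20 in 2 of 6 samples there, and with a pseudocount of 10 the Ccl7 over Ccr2 ratio in WT-LPS was -7.29. Of 1813 member values refitted under these alternatives over all comparisons, 64 changed sign. All 64 were among the LPS groups, with the value past the threshold in neither setting.

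The members called numbered 3 with equal totals for Reversa against WT+LPS. For Reversa against COX-1>COX-2 they numbered 1 with a pseudocount of 10, 1 with equal totals and 2 with samples 55 and 56 kept apart, and 0 to 2 without single samples. For Reversa against COX-2>COX-1 they numbered 1 with equal totals and 1 with the samples kept apart, and 0 to 1 without single samples. With equal totals, calls over all genes in these comparisons were 23, 9 and 29 in turn, against 17, 3 and 22 as deposited. Samples 51 to 56 of COX-2>COX-1, Reversa and WT+LPS share numbers, and the deviations of same-numbered samples had correlations of -0.35 to 0.21. Low correlations cannot show whether these samples were handled as sets. With the replicate block and samples 55 and 56 kept apart, 1 member, Ccl7, passed in Reversa against WT+LPS (0.51, adjusted p = 0.036), and 12 genes in all passed in Reversa against COX-2>COX-1.

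Calls over all genes fell within run 1 to 111 for WT+LPS and 105 for COX-1>COX-2, each against WT-LPS. Against WT+LPS, COX-1>COX-2 had 1 call within each run and 1 to 5 without single samples. COX-2>COX-1 had 4 with no filter and 1 within run 1 or run 3. Reversa had 9 with only the compared groups, 9, 5 and 9 within runs 1, 2 and 3, and 9 to 23 without single samples. For COX-1>COX-2 against COX-2>COX-1 there were 26 with equal totals (24 higher, against 8 of 12 as deposited), 19 with equal medians, 22 with only these groups, 2 and 7 within runs 1 and 2, and 7 to 12 without single samples. For Reversa against COX-1>COX-2 there were 11 with a pseudocount of 10, 9 with equal totals, 5 with 4 reference genes, 1 with only these groups, 1, 20 and 10 within the runs, 12 with samples kept apart, and 2 to 13 without single samples. For Reversa against COX-2>COX-1 there were 14 with no filter, 14 with equal medians, 9 with only these groups, 4, 12 and 13 within the runs, and 11 to 25 without single samples. The cause of these shifts was not tested.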
